A study of Mus musculus with 19 samples.

Results

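Interferon-responding macrophages were taken here as Csf1r-positive cells of the mouse tendon site that carried transcripts of several interferon-induced genes at once. A cell was a member if it held at least 1 unique molecular identifier (UMI, 1 counted transcript) of Csf1r, the receptor for the macrophage growth factor CSF1, and at least 1 UMI of 3 or more of the 5 genes Ifit1, Ifit2, Ifit3, Rsad2 and Cmpk2. Cells with a UMI of Pdgfra, a receptor of mesenchymal cells, or of Cdh5, an endothelial cadherin, were not taken. The rule found 445 members among 14611 cells that passed the same Csf1r, Pdgfra and Cdh5 gate and among 39541 cells with at least 500 detected genes and at most 25% mitochondrial UMIs. The remaining 14166 gated cells, which had 0 to 2 of the 5 genes, are called the other Csf1r-gated cells.

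The study followed heterotopic ossification, the formation of bone outside the skeleton, after a scald burn to 30% of the body surface and a cut of the Achilles tendon (burn/tenotomy). Cells from the tenotomy site were profiled by droplet single-cell RNA sequencing in 19 libraries: 4 at day 0, 3 at day 3, 4 at day 7, 4 at day 21, and 4 from mice given p7N3, a peptide that activates CD47. The comparisons over time followed the macrophages of the wound as it healed, and the p7N3 libraries addressed a treatment directed at those cells. The study's reporting form describes replicates of each time point as a measure of variability between mice, but the sources used here do not say which or how many animals each library holds, so p-values measure the spread between libraries, which may be technical.

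All groups carry the burn/tenotomy label, although the methods describe day 0 as tissue taken before injury. The labels name C57 and LysmCre/Tgfb1fx/fx mice for the model without assigning either to a library. In the second line Cre is driven by the LysM promoter, which is active in myeloid cells, macrophages among them, and deletes Tgfb1 there, so the genotype of each member could not be told apart. The methods describe young adult C57BL/6J males. The p7N3 mice received 10 mg/kg by intraperitoneal injection daily for 3 days before and 3 days after the injury, and they were compared with the day 7 libraries, for which the labels name no vehicle. The label of p7N3 replicate 4 gives no harvest day. Total UMIs per library ranged from 3019467 to 5383855 at day 0, from 25243407 to 33704901 at day 3, from 33235893 to 39870492 at day 7, from 11064153 to 29233343 at day 21 and from 25386054 to 35450868 with p7N3.

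Type I interferons are secreted proteins that bind the IFNAR1 and IFNAR2 chains on nearly every cell. The kinases JAK1 and TYK2 then phosphorylate STAT proteins, which join IRF9 and bind interferon-stimulated response elements in the promoters of many genes, while interferon gamma signals through its own receptor, JAK1 and JAK2. Macrophages both sense microbial or damaged nucleic acids and answer interferon, and their induced genes block viral replication, recruit lymphocytes and raise antigen presentation.

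The 3 Ifit genes of the rule lie within 99.3 kb of chromosome 19 (GRCm38, chr19:34550694-34650009), in the order Ifit2, Ifit3, Ifit1bl1, Ifit3b and Ifit1. They encode proteins that bind foreign RNA. Rsad2, which encodes the antiviral enzyme viperin, and Cmpk2, a mitochondrial nucleotide kinase, lie 12751 bases apart on opposite strands of chromosome 12 (chr12:26442746-26479837). Stretches of 150 bases upstream of 3 rule genes and of Isg15 are shown because they hold the letters of the response element. Each runs from 190 to 41 bases before the annotated start of the gene in RefSeq (GRCm38.p6), 5′ to 3′ on the strand of the gene, and capitals mark matches to GAAANNGAAA or, on the other strand, TTTCNNTTTC. They are Ifit1 at chr19:34640699-34640848 (plus strand), Ifit3 at chr19:34583339-34583488 (plus), Rsad2 at chr12:26456493-26456642 (minus) and Isg15 at chr4:156200859-156201008 (minus).
Ifit1: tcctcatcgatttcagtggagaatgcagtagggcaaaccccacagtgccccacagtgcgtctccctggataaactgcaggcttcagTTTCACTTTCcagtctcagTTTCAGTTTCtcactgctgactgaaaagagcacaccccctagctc
Ifit3: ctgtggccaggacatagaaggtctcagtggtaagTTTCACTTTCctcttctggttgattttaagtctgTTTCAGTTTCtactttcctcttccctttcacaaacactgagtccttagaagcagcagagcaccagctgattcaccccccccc
Rsad2: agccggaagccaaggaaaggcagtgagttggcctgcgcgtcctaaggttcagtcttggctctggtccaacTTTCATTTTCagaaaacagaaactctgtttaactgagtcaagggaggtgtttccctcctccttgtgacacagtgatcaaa
Isg15: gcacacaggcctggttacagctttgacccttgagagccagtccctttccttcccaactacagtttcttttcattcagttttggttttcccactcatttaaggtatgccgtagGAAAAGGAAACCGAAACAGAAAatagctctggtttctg
Ifit1 and Ifit3 each held 2 separate matches, Rsad2 held 1, and the 3 matches of Isg15 overlapped one another. Within 250 bases upstream of the start, 3 of the 5 rule genes held the letters, against 3.46% of the 27025 mouse genes with such a window. Such a match describes the sequence only and is neither a measured binding site nor a cause of the values that follow.

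Members were selected on the UMIs of the 5 rule genes, Csf1r, Pdgfra and Cdh5, so the values of these genes in members and in other cells are a description, with no test. The rule did not use the conditions. Of the gated cells, 11981 held none of the 5 genes, 1732 held 1 and 453 held 2. Among the members 222 held 3, 126 held 4 and 97 held all 5. Ifit3 was detected in 92.1% of the members and 5.81% of the other Csf1r-gated cells, Ifit1 in 85.4% and 4.40%, Rsad2 in 79.3% and 4.77%, Ifit2 in 69.0% and 1.99%, and Cmpk2 in 46.1% and 1.64%.

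Isg15, a ubiquitin-like protein that is attached to other proteins after interferon exposure, was not part of the rule, although it had been named as a marker of these cells. Its pooled level was higher at each number of rule genes, from 48.8 counts per 1000000 UMIs (CPM) in cells with none to 122 with 1 and 366 with 2. The level was 648 CPM just inside the rule, at 3 genes, and then 1132 and 1786 CPM at 4 and 5. It was detected in 70.9% of the cells just outside the rule and 89.2% of those just inside. The level and detection of Isg15 were thus graded across the threshold, with no gap between members and non-members.

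**Figure D1:**
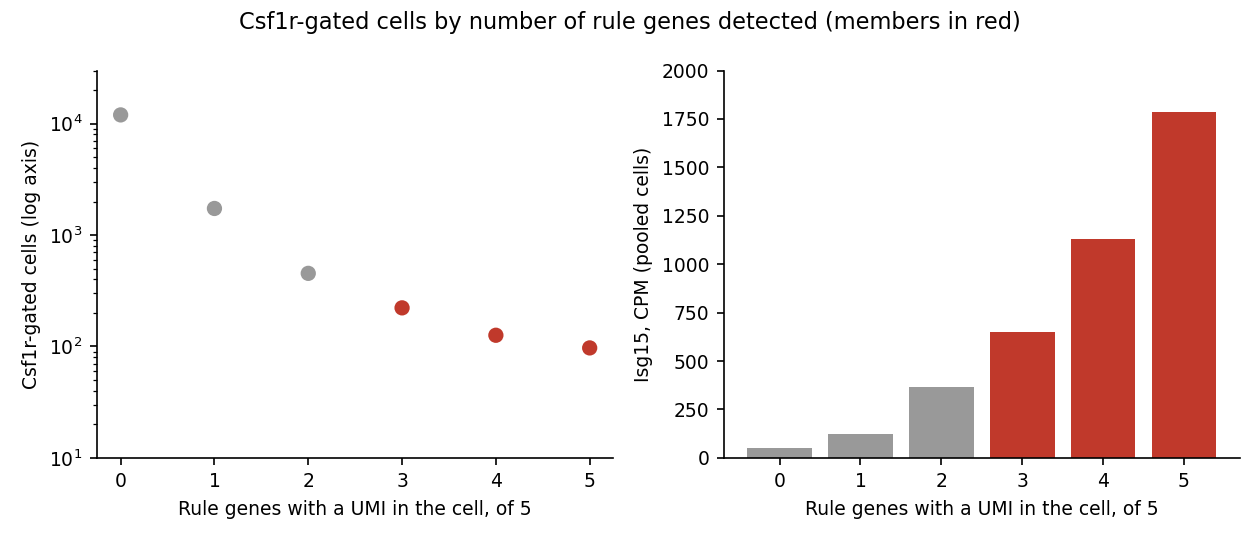
Left, the number of Csf1r-gated cells (log axis) with 0 to 5 of the rule genes detected; right, the pooled level of Isg15 in CPM in the same cells, with members in red. Cell numbers fell from 11981 to 97 while Isg15 went from 48.8 to 1786 CPM.

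Members carried the markers of macrophages. For each member, the other Csf1r-gated cell of the same library nearest in total UMIs was taken as a depth-matched cell, and the median depth was 7404 UMIs in members and 7406 in matched cells. Lyz2, a lysozyme of myeloid cells, was detected in 99.8% of members, Cd68, a lysosomal protein of macrophages, in 92.8%, the complement genes C1qb and C1qa in 91.2% and 86.1%, and Adgre1, which encodes F4/80, in 74.2%. Among the depth-matched cells, the shares were 98.7%, 90.6%, 83.8%, 81.6% and 63.6%. Fcgr1, the high-affinity IgG receptor CD64, was detected in 90.1% of members and 62.2% of matched cells.

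Most defining markers of lymphocytes and dendritic cells were near 0 in the members. Cd3e of T cells and Cd79a of B cells were each detected in 0.225% of them, Siglech of plasmacytoid dendritic cells in 0.674%, Xcr1 of cross-presenting dendritic cells in none, and Flt3, a dendritic cell growth factor receptor, in 3.82% against 6.29% of the matched cells. Cd79b of the B cell list was detected more often, in 13.7% of members and 11.9% of matched cells, Cox6a2 of the plasmacytoid list in 5.84% and 4.49%, and Cd209a of the conventional dendritic list in 5.62% and 8.76%. Neutrophil genes were present in both: S100a8, an alarmin subunit, was detected in 59.6% of members and 60.9% of matched cells, and Csf3r, the receptor for the neutrophil growth factor, in 27.2% and 22.5%. Both genes together were found in 20.4% of members and 16.9% of matched cells. At day 3 they were found together in 46.3% of members, 39.6% of matched cells and 37.0% of the other gated cells. The pooled levels of S100a8 (894 CPM in members and 1437 in matched cells), S100a9 (654 and 927), Retnlg (90.2 and 158) and Mmp9 (29.4 and 64.9) were lower in members, and Cxcr2 was detected in 3.15% of members and 6.07% of matched cells. Col1a1, a fibroblast collagen, was detected in 90.3% of members and 86.5% of matched cells at 682 and 1465 CPM. The part that RNA from other cells had in these levels was not tested. Of the members, 19 shared their barcode sequence with a cell of another library, and over the whole series 1962 of 39541 cells did. Cells in the top 3.9% of doublet scores of each library made up 2.25% of members and 3.37% of matched cells.

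Members were found in 17 of the 19 libraries. At day 0 the labelled libraries held 2 members of 127 gated cells, 1 of 63, 0 of 95 and 0 of 80. The libraries without a member allow shares of up to 3.16% and 3.75% (3 counts), and these limits and all intervals here cover counting error only. At day 3 the shares were 3.15%, 4.43% and 3.45% of Csf1r-gated cells, and at day 7 they were 2.28%, 3.22%, 5.22% and 2.65%. At day 21 they were 1.29%, 0.685%, 2.70% and 2.16%, from 14 members in all, and with p7N3 they were 3.08%, 2.70%, 3.33% and 1.16%. All day 3 and day 7 shares lay above all day 0 shares (but not after thinning to equal depth), the p7N3 and day 7 ranges overlapped, and p7N3 replicate 4 was the lowest of the day 3, day 7 and p7N3 libraries.

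The mean share was 0.791% ± 0.913 (SD, n = 4) at day 0, 3.68% ± 0.666 (n = 3) at day 3, 3.34% ± 1.31 (n = 4) at day 7, 1.71% ± 0.897 (n = 4) at day 21 and 2.57% ± 0.976 (n = 4) with p7N3. No difference passed an exact two-sided permutation test over libraries after Benjamini-Hochberg adjustment over the 6 pairs compared. Each pair allows no p under 0.0286, so a single pair that separated fully could not pass this adjustment alone. Several pairs had to reach that p together. The share was 2.89 percentage points higher at day 3 than at day 0 (exact permutation p = 0.0286, adjusted 0.0857) and 2.55 points higher at day 7 (p = 0.0286, adjusted 0.0857), where the first of these designs, with 3 against 4 libraries, and the second, with 4 against 4, allow a smallest p of 0.0286. The difference was -1.63 points for day 21 against day 7 (exact permutation p = 0.0857, adjusted 0.171), 0.335 points for day 3 against day 7 (p = 0.686, adjusted 0.686), and -0.776 points for p7N3 against day 7 (p = 0.486, adjusted 0.583). Day 7 replicate 3 had the highest share of its group, and without it the differences were -1.01 points for day 21 and -0.152 points for p7N3. Leaving out each library in turn gave -1.99 to -1.01 points for day 21 and -1.13 to -0.152 points for p7N3, where the difference was also smaller without p7N3 replicate 4. A p that misses the threshold in so few libraries does not show that the shares were alike. With all kept cells in place of gated cells as the denominator, day 3 and day 7 passed against day 0. Day 3 and day 21 also passed against day 7 there (each adjusted exact permutation p = 0.0429). The part of gated cells among kept cells, given below, differed between these groups too.

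Depth moved with these groups: the median UMIs of Csf1r-gated cells were 3810 at day 0, 9926 at day 3, 5675.5 at day 7, 8348 at day 21 and 5458 with p7N3. After every cell was thinned to 2000 UMIs, which left out 50 day 0 cells that were shallower and none of the other groups, the mean shares were 0.368%, 0.849%, 1.40%, 0.344% and 1.06% in the same order. Day 7 then stood above day 3, by 0.549 points, where it had been below without thinning, and day 21 (0.344%) stood beside day 0 (0.368%). Few members were left there. As means of the thinning draws, the day 0 libraries held 1.1, 0.15, 0 and 0 members and the day 21 libraries 0.5, 0.05, 0.3 and 1.2. The differences from day 0 fell to 0.481 points at day 3 (exact permutation p = 0.229, adjusted 0.457) and 1.03 points at day 7 (exact permutation p = 0.0857, adjusted 0.257), and the day 3 and day 7 libraries then overlapped with those of day 0. The difference of day 21 from day 7 was -1.05 points in thinned cells (exact permutation p = 0.0286, adjusted 0.171). The day 21 and day 7 libraries did not overlap there, and this unadjusted p was the smallest that the design allows.

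**Figure D2:**
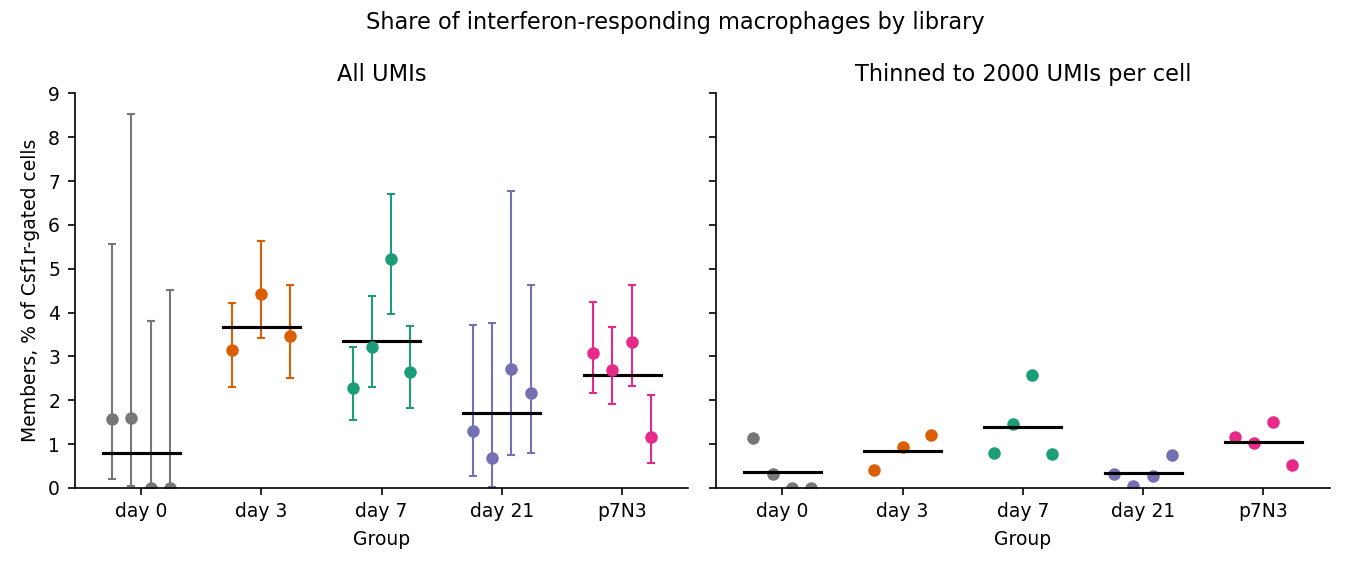
Members as a percentage of the Csf1r-gated cells of each library, with all UMIs (left, bars are exact 95% binomial intervals) and after thinning to 2000 UMIs per cell (right); each point is 1 library and the black lines are group means. With all UMIs the day 3 and day 7 means are 3.68% and 3.34%, and after thinning they are 0.849% and 1.40%.

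The summed level of the 5 rule genes over all Csf1r-gated cells, which needs no cut per cell, was 48.3 ± 19.1 CPM (SD, n = 4) at day 0, 74.9 ± 25.1 (n = 3) at day 3, 99.0 ± 48.1 (n = 4) at day 7, 39.1 ± 19.9 (n = 4) at day 21 and 84.6 ± 21.9 (n = 4) with p7N3. None of the 6 pairs passed, and the nearest was day 21 against day 7, at -59.8 CPM (exact permutation p = 0.0571, adjusted 0.343). That difference was between -72.8 and -37.5 CPM when a library was left out, the smallest without day 7 replicate 3. Over all kept cells, without the Csf1r gate, the level at day 3 and day 7 differed from day 0 by -78.1 and -82.2 CPM, so the direction of these comparisons depended on the gate. Of these UMIs in gated cells, members supplied 67.7% ± 9.09 at day 3, 64.8% ± 2.90 at day 7 and 52.5% ± 6.90 with p7N3. At day 0 and day 21, with few members, they supplied 17.1% ± 19.8 and 49.9% ± 19.9. The remainder came from cells with 1 or 2 of the genes. The same 3-of-5 criterion was met by 8.98% ± 1.12 (SD, n = 4) of Cdh5-gated endothelial cells at day 0 and 3.85% ± 0.766 (n = 4) at day 7, and by between 0.320% and 0.959% of Pdgfra-gated cells in every group, although the latter were sequenced more deeply than the Csf1r-gated cells. Cells that met the criterion were thus also found outside the Csf1r gate.

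The other genes of the members were compared with those of the other Csf1r-gated cells in the 11 libraries with at least 10 members, namely 3 at day 3, 4 at day 7 and 4 with p7N3. UMIs were summed per library for members and for others, and 9903 genes were tested with edgeR (quasi-likelihood test, Benjamini-Hochberg adjustment, threshold 0.05), each library serving as a block. In members 724 genes were higher (7.31% of those tested) and 682 lower (6.89%), and the median of all genes was -0.07 on the log2 scale. At least a 2-fold difference was shown by 226 of the former and 200 of the latter. With at least 10 UMIs required in every sum, 894 genes were tested, and 79 were at least 2-fold higher and 5 at least 2-fold lower. Against depth-matched cells, with 3014 genes tested, these counts were 116 and 12. Members were picked for genes of a shared response, so the rise of further genes of that response describes which transcripts were detected in the same cells and is not independent evidence of it. The 5 rule genes, Csf1r, Pdgfra and Cdh5 received no test. A gene low in the other cells could pass the count filter through the member sums alone, where it was high. A gene low in members could likewise pass through the sums of the others. Fold changes of such genes are a description, and counts under a stricter filter are given below. The genes so marked in the text may not be all of them.

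Antiviral effectors, whose products act on viral RNA, proteins or particles, were higher almost throughout. Of the 25 genes on that list that were tested, 23 were higher in members and 1 was lower, with a median log2 difference of 2.26, and 23 were higher in each of the 11 libraries, as were 317 of the 9903 genes (3.2%). Levels of single genes here and below are CPM on the UMIs of the genes kept in this fit, scaled by its TMM factors (edgeR's normalization). Isg15 ranged from 812 to 1728 CPM (median 1108) in members and from 52.9 to 95.1 CPM (median 70.1) in the other cells of the same libraries. The ranges lay far apart, and the log2 fold change was 3.97 (SE 0.10, adjusted p = 6.01e-21 by edgeR). Ifi44, an interferon-induced protein that restrains viral growth, ranged from 8.11 to 38.0 CPM (median 15.6) in members and from 0.17 to 1.57 (median 0.45) in others, a log2 fold change of 5.02. It was so low in the other cells that it could pass the filter only through the member sums. Its difference is a description, with no test, although it is counted among the 23. Mx1, a dynamin-like GTPase that traps viral particles, ranged from 43.6 to 117 CPM in members and from 2.44 to 5.29 in others, without overlap (log2 fold change 4.27).

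Ifit1bl1 and Ifit3b had log2 fold changes of 6.49 and 5.76, but both are close copies of rule genes in the same cluster, and reads of one copy could have been counted for another. The one effector that was lower was Ifitm1, a membrane protein that hinders viral entry (log2 fold change -1.01), while Ifitm2 was not called (0.10). In single cells, members held UMIs of a median of 15 of the 25 effectors (quartiles 13 and 18) against 7 (quartiles 5 and 9) in depth-matched cells. Effectors made up 1.30% of all UMIs of the members and 0.651% of those of the other gated cells. Per library the share ranged from 0.895% to 1.83% in members and from 0.456% to 0.904% in others, and members exceeded the others in every one of the 11 libraries.

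**Figure D3:**
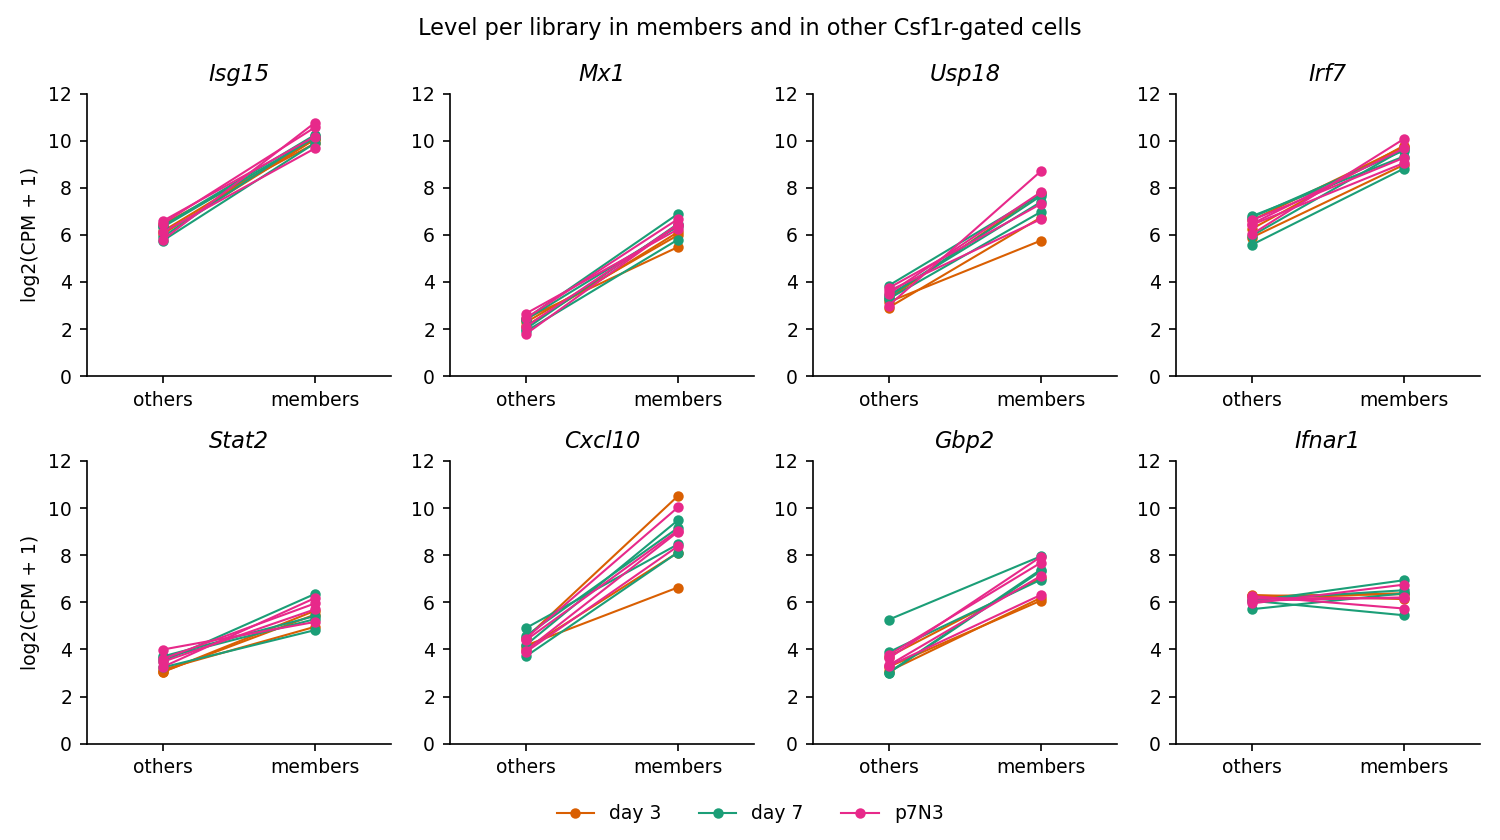
Level of 8 genes as log2(CPM + 1) in the other Csf1r-gated cells and in the members, with 1 line per library coloured by group (3 day 3, 4 day 7 and 4 p7N3 libraries). Isg15, Mx1, Usp18, Irf7, Stat2, Cxcl10 and Gbp2 rise in every library, whereas Ifnar1 moves in both directions.

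Interferon genes themselves were hardly detected. In all 39541 cells there were 13 UMIs of Ifnb1 in 8 cells, 6 of them Csf1r-gated and none a member. Ifng, the product of T and natural killer cells, gave 167 UMIs in 86 cells, of which 7 were gated and 0 were members. Ifnab gave 2 UMIs in 2 cells, 1 of which was a member, and Ifna2 and Ifnk gave 1 UMI each. The other listed ligands had none, and no ligand passed the filter for testing. With few UMIs, and with the types of the positive cells outside the gate not examined, the source of interferon was not identified.

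The 8 tested receptors and kinases of the pathway had log2 differences between -0.24 and 0.28. Of these, Il10rb, a chain of the receptors for interleukin 10 and interferon lambda, was called, at a log2 fold change of 0.25 (SE 0.08, adjusted p = 0.0482 by edgeR, higher in 7 of 11 libraries), and it was not called in 7 of the 11 fits that left out a library or against the depth-matched cells (0.14, adjusted p = 0.37 by edgeR). Ifnar1 ranged from 42.8 to 122 CPM (median 80.3) in members and from 51.2 to 78.5 (median 68.3) in others, and the ranges overlapped. The log2 fold changes were 0.19 for Ifnar1, 0.09 for Ifnar2, -0.24 for Ifngr1, 0.08 for Ifngr2, 0.07 for Jak1, 0.25 for Jak2 and 0.28 for Tyk2, none of them called.

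Transcription factors of the response were higher in members for 5 of the 7 tested, with a median of 0.85. Irf7, which drives further interferon production, ranged from 447 to 1071 CPM (median 763) in members and from 46.6 to 110 (median 84.7) in others, with a log2 fold change of 3.15 (SE 0.11, adjusted p = 2.25e-18 by edgeR). Stat2, a signal transducer of the type I pathway, ranged from 27.2 to 80.8 CPM (median 43.6) against 7.22 to 14.9 (median 10.1), with a log2 fold change of 2.26 (SE 0.18). The members and others did not overlap for either gene. Irf9, its partner in the type I complex, was higher by 1.01 on the log2 scale. Irf3, which is activated by phosphorylation, was not called (-0.17).

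Sensors of nucleic acids were higher for 10 of 13 tested (median 1.16). Ifi204, a DNA sensor, Ifih1, which encodes the RNA sensor MDA5, and Ddx60, a helicase that aids RNA sensing, had log2 fold changes of 2.57, 2.56 and 2.55. In the group of ISGylation and feedback genes, 6 of 7 were higher (median 1.56). Usp18, which removes ISG15 from proteins and blocks signalling at IFNAR2, ranged from 52.9 to 414 CPM (median 167) in members and from 6.53 to 13.4 (median 9.40) in others. Every library lay apart, at a log2 fold change of 4.06 (SE 0.18, adjusted p = 2.34e-16 by edgeR). Herc6, the ligase that attaches ISG15 in the mouse, and Ube2l6, the conjugating enzyme before it, were higher by 3.09 and 2.01.

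All 11 tested guanylate-binding and immunity-related GTPases, which attack the vacuoles of intracellular pathogens, were higher in members, in each library, with a median of 3.00. Gbp2 ranged from 66.3 to 247 CPM (median 138) in members and from 6.99 to 37.4 (median 9.02) in others, without overlap. The log2 fold changes were 4.48 for Iigp1, 3.67 for Gbp5 and 3.58 for Gbp2. These families hold similar copies, and counts of single members are uncertain where reads could be shared.

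Of the 9 interferon-linked chemokines and cytokines tested, 8 were higher (median 1.83). Cxcl10, which attracts CXCR3-bearing T cells, ranged from 98.0 to 1456 CPM (median 507) in members and from 12.0 to 28.9 (median 17.1) in the other gated cells. Its lowest member library lay above the highest library of the others, at a log2 fold change of 4.67 (SE 0.21, adjusted p = 6.09e-16 by edgeR). Tnfsf10, the death ligand TRAIL, was higher by 4.54 and Ccl5, a T cell and monocyte attractant, by 2.40. Like Ifi44, Tnfsf10 was so low in the other cells that it could pass the filter only through the member sums. The difference of Tnfsf10 is a description, with no test, although it is counted among the 8. Among 14 inflammatory chemokines and cytokines, 6 were higher and 1 lower, with a median of -0.05. Ccl2 and Ccl7, which recruit CCR2-bearing monocytes, were higher by 1.22 and 1.12 and the anti-inflammatory cytokine Il10 by 1.02 (not called without day 3 replicate 2), whereas the inflammasome product Il1b fell by 0.51 (not called without p7N3 replicate 2 or by DESeq2).

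Among the genes of antigen presentation, those of class I were higher. Of 12 genes of the MHC class I pathway, which shows peptides to CD8 T cells, 11 were higher in members (median 0.89), led by Tap1, a subunit of the peptide transporter, at 1.79, Nlrc5, the class I transactivator, at 1.67, and the immunoproteasome subunit Psmb9 at 1.27. None of the 7 class II genes was called, and their median was 0.08. Cd74, the invariant chain of class II, had a log2 fold change of 0.08 (adjusted p = 0.773 by edgeR).

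Genes of other macrophage states differed in both directions. Of 7 resident macrophage genes tested, 5 were higher (median 0.51), among them the mannose receptor Mrc1 at 0.71, the reductase Cbr2 at 0.68 and the folate receptor Folr2 at 0.66. Within the groups taken alone, 4 of 8 were higher at day 3 (median 0.88), 1 of 7 at day 7 (0.47) and 0 of 7 with p7N3 (0.28), and no gene of the list was higher in every library. Folr2 was detected in 52.1% of members and 31.2% of depth-matched cells, with 69.8% and 42.3% at day 3, 48.8% and 25.6% at day 7, and 34.5% and 22.7% with p7N3. Of 8 inflammatory monocyte genes, 2 were higher and 4 lower. Ly6c2, a surface marker of inflammatory monocytes that interferon also induces, was higher by 1.11, and Vcan, a matrix proteoglycan, and Hp, haptoglobin, fell by 0.99 and 0.83. The 6 neutrophil markers, led by S100a8, summed to between 63.1 and 5772 CPM in members and between 275 and 5973 CPM in others, lower in members in 10 of the 11 libraries (all but p7N3 replicate 3), and their part in the lower Hp, Vcan and Il1b was not tested. Of 7 lipid-handling macrophage genes 1 was called, the tetraspanin Cd9, which was lower (-0.99). Of 10 cell cycle genes 5 were lower and none higher (median -0.79), including the topoisomerase Top2a at -1.17 (not called without day 3 replicate 1), the survivin gene Birc5 at -1.15 and thymidylate synthase Tyms at -1.13. Within the groups taken alone, 0 of the 10 were called at day 3 (median -0.44), 2 were lower at day 7 (-0.83) and 3 with p7N3 (-1.74). A UMI of Mki67 or Top2a was found in 9.21% of members, 9.04% of the other gated cells and 11.7% of depth-matched cells, and at day 3 in 16.8%, 16.5% and 23.5%.

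The study centred on TGF beta and CD47. Among the 10 genes tested from that list, Cd47, the "do not eat me" ligand of SIRPα, ranged from 412 to 657 CPM (median 551) in members and from 354 to 399 (median 378) in others. All member libraries exceeded all libraries of the others, at a log2 fold change of 0.52 (SE 0.07, adjusted p = 4.56e-06 by edgeR). Tgfb1 was not called (-0.10, adjusted p = 0.529 by edgeR), and Pdgfb, a growth factor for mesenchymal cells, was lower (-0.98), a call that was lost in 7 of the 11 fits that left out a library. These 2 were the only called genes of the list.

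**Figure D4:**
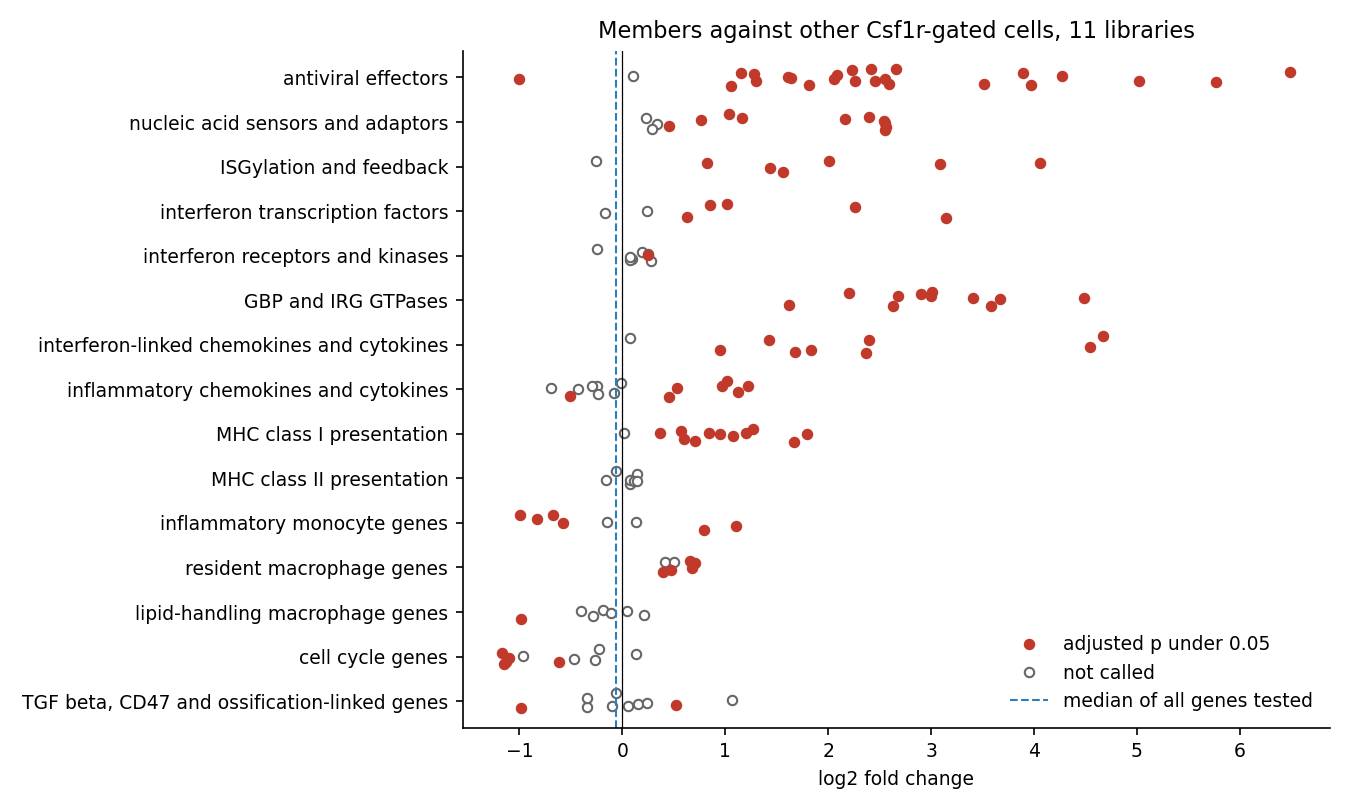
Log2 fold change of members against other Csf1r-gated cells for every tested gene of the lists, with called genes filled and the median of all 9903 tested genes dashed. Interferon-linked groups and MHC class I lie to the right, receptors, kinases and MHC class II lie near 0, and cell cycle genes lie to the left.

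Outside the lists, the strongest genes higher in members were Pydc3 (log2 fold change 4.84) and Pydc4 (3.77), which encode small pyrin-domain proteins, and Phf11a (3.87), Phf11d (3.56) and Phf11b (3.39), members of a family of near-identical copies for which the assignment of reads is uncertain. Pydc3 averaged 40.1 CPM in members and, by its fold change, was low in the other cells, so its difference is a description, with no test. The strongest lower genes were Tagln (-3.03), Acta2 (-2.14) and Myl9 (-2.02) of smooth muscle, C1qtnf3 (-2.55), a secreted protein of mesenchymal cells, and Ctsk (-2.52), the collagen-cleaving protease of osteoclasts. Tagln ranged from 0 to 75.9 CPM in members and from 55.1 to 219 in others. Marker sums of other cell types moved with these genes. The 5 stromal markers, with Col1a1 among them, summed to between 556 and 2992 CPM in members and between 882 and 7572 CPM in others, lower in members in each of the 11 libraries, and the 4 mural markers, led by Acta2, summed to between 27.1 and 589 CPM in members and lay below the others in 10 of the 11, p7N3 replicate 1 being the exception. The 4 haemoglobin genes of the erythroid list, led by Hbb-bs, summed to between 113 and 14953 CPM in members and between 417 and 18235 CPM in others, lower in members in all but day 7 replicate 3. The part of RNA from these cells in the lower genes was not tested.

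Against the depth-matched cells, 3014 genes had enough counts, and 377 were higher (12.5%) and 249 lower (8.26%). Of the genes higher in members, 458 were tested there and all 458 kept their direction. Of the lower genes, 333 were tested and 331 kept it. Effectors were higher for 16 of 18 tested, class I genes for 10 of 10, GTPases for 6 of 6 and receptors and kinases for 0 of 6. Ctsk and Acta2 stayed lower, at -1.28 (adjusted p = 0.00579 by edgeR) and -1.69 (adjusted p = 0.029 by edgeR). Il1b was not called there (-0.34, adjusted p = 0.424 by edgeR), nor were Hp (-0.35, adjusted p = 0.22 by edgeR) or any gene of the inflammatory monocyte list in the lower direction. Within the groups taken alone, 490 genes were higher (4.37%) and 254 lower (2.27%) at day 3, 371 higher (3.68%) and 177 lower (1.75%) at day 7, and 286 higher (2.89%) and 231 lower (2.33%) with p7N3. Isg15 had log2 fold changes of 3.81, 4.04 and 4.04 in the 3 groups, Cxcl10 of 4.46, 4.54 and 5.01, and Cd47 of 0.42, 0.49 and 0.65.

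The response element letters GAAANNGAAA, on either strand, were found upstream of 10.5% of the genes higher in members that had a window (58 of 554), of 24.4% of those higher by at least 2-fold (41 of 168) and of 3.19% of the lower genes (16 of 502), against 3.36% of all tested genes. Of the effectors with a window 10 of 19 held the letters, of the GTPases 9 of 10 and of the receptors and kinases 0 of 8. Among other lists that were mostly higher in members, the letters were found for 2 of 9 sensors and 2 of 10 class I genes. They were found for 1 of 7 each of the ISGylation and feedback genes, the transcription factors and the interferon-linked chemokines and cytokines. Of the resident macrophage genes with a window, 0 of 7 held them. The letters TTCNNNGAA, those of the gamma-activated site, were found upstream of 8.30% of the genes higher in members, 13.1% of those higher by at least 2-fold and 4.78% of the lower genes, against 7.18% of all tested genes, and of 6 of 10 GTPase genes.

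Between conditions, members were compared over the same 11 libraries, and the day 3 and p7N3 comparisons share the day 7 libraries. Neither day 0 nor day 21 had a library with 10 members, and they were not tested. Of 3719 genes, 69 were higher at day 3 than at day 7 (1.86%) and 83 lower (2.23%). Leaving out any 1 of the 3 day 3 libraries cut the counts to between 21 and 32 higher and between 18 and 24 lower, and without day 7 replicate 2 or replicate 3 they were 30 and 43 higher and 32 and 34 lower. Gene levels in this comparison are CPM from the fit among members alone, with its own kept genes and TMM factors, so they differ from those given against the other gated cells (Isg15 in p7N3 replicate 4 is 2187 CPM here and 1728 there). Isg15 was at 955, 1058 and 1078 CPM at day 3 and at 1265, 1265, 1175 and 1034 CPM at day 7, and the ranges overlapped (log2 fold change -0.20, adjusted p = 0.693 by edgeR). Of 23 effectors tested 1 was lower, Ifit3b (-1.58), and none higher, and the median was -0.24, against -0.02 for all genes. Herc6 (-0.98) was lower, while none of the 6 transcription factors, 8 sensors or 7 receptors and kinases was called. Members were deeper at day 3 than at day 7 (mean of library medians 12061.5 and 6283.75 UMIs), and the rule asked for single UMIs. The summed rule genes averaged 1261 CPM in day 3 members and 1814 CPM in day 7 members. The part of depth in the lower Ifit3b and Herc6, and in the lower Iigp1 given below, was not tested.

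Several chemokines and cytokines differed between the days. Ccl5 was at 96.4, 48.7 and 66.9 CPM in day 3 members and at 1594, 784, 195 and 226 CPM in day 7 members. The groups did not overlap, and the log2 fold change was -3.29 (SE 0.67, adjusted p = 0.0156 by edgeR), a call that was lost when any 1 of the day 3 libraries was left out. The GTPase gene Iigp1 (-2.21), the monocyte attractant Ccl12 (-1.10) and the membrane-bound chemokine Cxcl16 (-1.14) were lower at day 3, and the inflammasome cytokine Il18 was higher (1.29). Tnf, the central inflammatory cytokine, was at 223, 248 and 312 CPM at day 3 and at 20.2, 79.6, 83.9 and 72.3 CPM at day 7, without overlap (log2 fold change 1.97, SE 0.26, adjusted p = 0.00189 by edgeR). Ccl7 was higher by 1.77, at 2663, 2636 and 3208 CPM against 1002, 804, 1108 and 413 CPM. Of the 3719 genes 17.6% did not overlap between the day 3 and day 7 libraries in either direction.

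MHC class II genes were lower in day 3 members for 5 of 6 tested, with a median of -1.68. Cd74 was at 6909, 5891 and 2351 CPM at day 3 and at 16150, 27702, 13290 and 7327 CPM at day 7, so that the highest day 3 library lay just below the lowest day 7 library (log2 fold change -1.67, SE 0.43, adjusted p = 0.0397 by edgeR). H2-Eb1, H2-Ab1, H2-Aa and H2-DMa had log2 fold changes of -1.86, -1.79, -1.68 and -1.26. All 5 class II calls were lost when any 1 of the 3 day 3 libraries, or day 7 replicate 1, 2 or 3, was left out, each with its direction kept. Inflammatory monocyte genes were higher for 3 of 7 tested, with a median of 1.48. Chil3, a chitinase-like protein of monocytes, was at 397, 260 and 338 CPM at day 3 and at 10.1, 15.9, 10.1 and 29.8 CPM at day 7 (log2 fold change 4.31, SE 0.36, adjusted p = 2.08e-05 by edgeR), and Hp and Plac8 were higher by 2.69 and 1.48. Trem2, the lipid receptor of phagocytes, was lower (-0.83). Ly6c2 and Chil3 were detected together in 29.5% of day 3 members, 3.75% of day 7 members and 5.88% of p7N3 members. The shares were 26.8%, 1.88% and 6.72% in depth-matched cells and 32.4%, 2.68% and 6.14% in the other gated cells.

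Outside the lists, the strongest genes higher in day 3 members were Retnlg (6.33), Saa3 (5.88), Lrg1 (4.22), S100a9 (3.67) and S100a8 (3.43), of which Retnlg and the S100 genes are neutrophil markers. The strongest lower ones were Mest (-6.33), Aspn (-3.85), Meg3 (-3.68), Ebf1 (-3.64) and Mfap2 (-3.07), genes of mesenchymal cells. Neutrophil and stromal marker sums moved with them. The 6 neutrophil markers, of which S100a8 was the most abundant, summed to 2354, 1702 and 5772 CPM in day 3 members and to 202, 63.1, 442 and 419 CPM in day 7 members, and the stromal markers to 681, 961 and 556 CPM against 754, 2931, 2992 and 2733 CPM. Their part in these calls was not tested. Of the 28 genes named in this comparison, 10 kept their call without each of the 7 libraries in turn, namely Tnf, Ccl7, Il18, Chil3, Hp, Retnlg, Saa3, Lrg1, Mest and Aspn.

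The same contrast was fitted in the other Csf1r-gated cells, where 20.1% of 12300 genes were higher at day 3 and 20.2% lower. There Chil3 differed by 4.28, Tnf by 2.22, S100a8 by 3.65, Cd74 by -0.96, Ccl5 by -1.39 and Mest by -4.61, each with an adjusted p under 0.05 by edgeR. Whether members changed differently from the other gated cells was tested directly as an interaction over 9903 genes. The member effect was higher at day 3 than at day 7 for 2 genes (0.0202%) and lower for none, with 544 at an unadjusted p under 0.05. These were Mmp9, a neutrophil and macrophage gelatinase (difference of log2 fold changes 2.98, SE 0.54, adjusted p = 0.0458 by edgeR), and Spon1, a matrix protein (2.74, SE 0.46, adjusted p = 0.0262 by edgeR). On the scale of the fit against the other gated cells, Mmp9 averaged 56.8 CPM in day 3 members and 10.0 in day 7 members, against 87.6 and 145 CPM in the others. When any 1 of the 7 libraries was left out, 1 or 0 genes were called. For Ccl5 the interaction was -1.53 (adjusted p = 0.651 by edgeR).

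**Figure D5:**
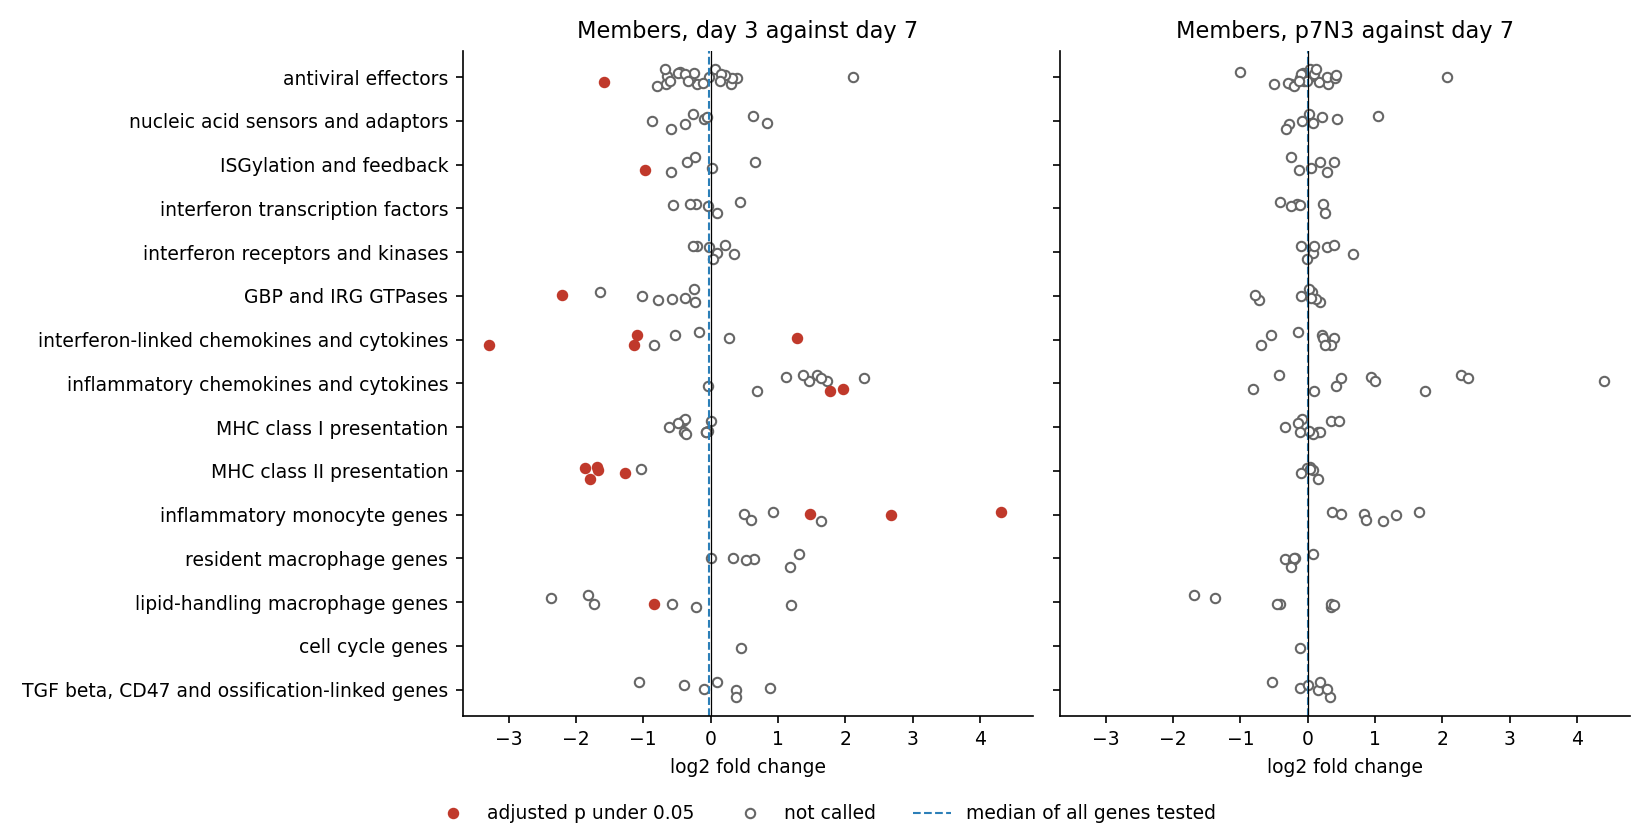
Log2 fold change between conditions in members for every tested gene of the lists, day 3 against day 7 (left) and p7N3 against day 7 (right), with called genes filled and the median of all 3719 genes dashed. At day 3 class II genes lie to the left and inflammatory monocyte genes to the right, and with p7N3 no gene is filled.

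With p7N3 no gene passed in members, in either direction (0% of 3719), by edgeR or by DESeq2. At an unadjusted p under 0.05 there were 228 genes by edgeR and 149 by DESeq2. Without the filter on low counts, 43 genes were called higher and 39 lower. Isg15 was at 1248, 1610, 890 and 2187 CPM with p7N3, a wider range than at day 7 (1034 to 1265 CPM) that enclosed it, and the log2 fold change was 0.30 (SE 0.21, adjusted p = 0.88 by edgeR). Medians of the lists lay between -0.22 and 0.22 except for the inflammatory chemokines and cytokines (0.94), inflammatory monocyte genes (0.86) and the 7 lipid-handling macrophage genes (-0.41), in which no gene was called. Single libraries stood apart in these lists. In p7N3 replicate 1, Cxcl2 was at 6654 CPM and Cxcl3 at 1868, against at most 1154 and 44.6 in the other p7N3 libraries, while Ccl2 was lowest there (286 CPM). In day 7 replicate 4, Gpnmb was at 1540 CPM and Cd36 at 1038, against at most 225 and 175 in the other day 7 libraries. Replicate 4 of p7N3 contributed only 10 members. The member effect differed between p7N3 and day 7 for 0 of 9903 genes (0%) by edgeR, with 488 at an unadjusted p under 0.05. In the other gated cells, p7N3 gave 0 higher genes and 1 lower (0.00813%). A gene that did not pass in sums of so few cells is not shown to be unchanged.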

How the data were processed

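Cells were profiled with the 10x Genomics 3′ v2 kit. The authors ran Cell Ranger and deposited raw UMI counts per gene and cell barcode for each of the 19 libraries, and the methods give the mm10 mouse genome, while the submitters' processing notes name Cell Ranger, Seurat and the builds GRCh38 and mm10. All 27998 gene identifiers are those of the mouse. One day 0 file held all 737280 possible barcodes, so the same limits on genes and mitochondrial UMIs were applied to each library. No clusters or cell annotations of the authors were used. Libraries were grouped by their labels, and replicate numbers were taken from the titles.

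UMIs were summed per library over members and over other gated cells, for libraries with at least 10 members, and fitted with edgeR 4.0.16 in R 4.3.3 (TMM scaling, filterByExpr with a minimum count of 10, quasi-likelihood test, Benjamini-Hochberg adjustment over all tested genes). CPM of cells pooled over libraries, of marker sums and of the rule genes are UMIs per 1000000 UMIs. CPM of single genes per library are edgeR's, on the UMIs of the genes kept in the fit concerned, scaled by its TMM factors, and levels from separate fits are not on one scale. Shares and summed levels were compared by exact permutation tests (scipy 1.17.1), with exact Clopper-Pearson 95% intervals. Thinning used the mean of 20 draws, and doublet scores came from Scrublet in scanpy 1.11.5. The fits were tested on simulated data in which 200 genes changed 2-fold. Of these, 72% were recovered for members against others, 50.5% for day 3 against day 7 and 30.5% for p7N3 against day 7. False calls made up 7.69%, 4.72% and 3.17% of the calls in the same order.

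The members, gene lists and markers were chosen with earlier results of these data known. A gene in each of 2 lists is not reported here and was left out of its list's counts and median. Named genes were, for each list, the 3 called genes with the largest change plus Isg15, ligands and receptors, and, outside the lists, the 5 largest called in each direction with at least 20 CPM and the same direction in every library (or no overlap between groups). Fcgr1, C1qa, C1qb, Adgre1, Cd68, Cd74, Tgfb1, Mx1, Ifitm1, Ifitm2, Irf9, Irf3 and Il1b were named beyond that rule after their values were seen. For members at day 3 against day 7, H2-DMa and Ccl12 were also named beyond it. Alternatives were DESeq2 1.42.0, RLE scaling, other filters, comparison cells, rules, mitochondrial and doublet limits, and leaving out each library; fits within each group and in the other gated cells were chosen after seeing the data. Promoter windows and positions came from RefSeq GRCm38.p6 and GENCODE for the same build.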

Additional observations from a re-analysis of the deposited data

Results flagged for a closer look

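In groups of 4 libraries, 258 sets of values were searched for a single library far from the other 3, and 16 were found, where chance alone marks about 1 in 20. Gene levels are TMM-scaled CPM of the fit against the other gated cells. In members, S100a9 (751 CPM), Retnlg (48.0 CPM) and Mest (61.1 CPM) were high in p7N3 replicate 3, Ccl2 (955 CPM) in p7N3 replicate 2 and Meg3 (122 CPM) in p7N3 replicate 1. Members of day 7 replicate 3 were high in Il10 (60.2 CPM) and Saa3 (9.50 CPM), and those of day 7 replicate 2 in Acta2 (224 CPM).

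In the other Csf1r-gated cells, Ifi44 (1.13 CPM) was high in day 7 replicate 2 and Ebf1 (50.2 CPM) in day 7 replicate 3. The share of UMIs in antiviral effectors (0.456%) was low in day 7 replicate 4 and Tagln (125 CPM) in day 7 replicate 1. Ccl2 (188 CPM) and Ccl7 (295.9 CPM) were low in p7N3 replicate 3, and Ifi204 (82.4 CPM) and Tap1 (34.3 CPM) in p7N3 replicate 4.

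Mmp9 and Spon1 were set apart because the difference between members and other gated cells was not the same at day 3 and day 7, by 2.98 and 2.74 on the log2 scale in edgeR's interaction test (adjusted p = 0.0458 and 0.0262). For Mmp9 the members lay below the others at both times, on average 56.8 against 87.6 CPM at day 3 and 10.0 against 145 CPM at day 7. Spon1 averaged 34.2 CPM in day 3 members and 19.0 CPM in day 7 members, against 8.27 and 28.9 CPM in the others. Without day 7 replicate 3 or 4 neither gene was called.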

How the results depend on the processing

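Of the 51 genes named as called for members against other Csf1r-gated cells, 46 kept their call without each library in turn, and the counts then ranged from 600 to 750 higher and from 556 to 720 lower. The counts moved with at least 10 UMIs required in every sum (253 higher, 288 lower), with depth-matched cells (377 and 249), within day 7 (371 and 177) and within p7N3 (286 and 231), and the lower count within day 3 (254). Fewer genes, cells or libraries entered these fits, and the called genes were not all the same. With at least 10 UMIs, 247 of the 253 higher and 127 of the 288 lower genes were also called in the main fit. Against depth-matched cells, 355 of the 377 higher and 187 of the 249 lower genes were.

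The share of members at day 3 minus day 7 reversed in cells thinned to 1500, 2000 and 3000 UMIs, to -0.440, -0.549 and -0.770 points, and ranged from -0.0400 to 0.959 when a library was left out, turning negative without day 3 replicate 2 or day 7 replicate 1. Day 21 minus day 0 reversed at 2000 UMIs (-0.0239). With all kept cells as the denominator, the differences passed (adjusted exact permutation p = 0.0429) for day 3 and day 7 against day 0 (2.46 and 1.09 points), day 3 against day 7 (1.37) and day 21 against day 7 (-0.924). Gated cells made up 10.3% of kept cells at day 0, 69.8% at day 3, 37.0% at day 7 and 15.3% at day 21. Their part in these differences was not tested. The summed level over all kept cells, without the Csf1r gate, reversed for day 3 and day 7 against day 0 (-78.1 and -82.2 CPM) and for day 3 against day 7 (4.10 CPM). The level for p7N3 minus day 7 ranged from -27.3 to 7.93 CPM, positive without day 7 replicate 3.

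For members at day 3 against day 7, the counts were 269 higher and 228 lower without a filter, 32 and 35 with at least 10 UMIs in every sum, 154 and 173 with at least 2 of the 5 rule genes, and from 21 to 82 higher and from 18 to 106 lower with a library left out. For p7N3 against day 7 they were 43 and 39 without a filter and 0 to 1 in each direction with a library left out (1 and 1 without day 7 replicate 1). The member effect gave 1 gene with RLE scaling and 0 to 1 with a library left out at day 3, and 0 to 1 higher (without day 7 replicate 1 or p7N3 replicate 2, 3 or 4) and 0 to 1 lower (without p7N3 replicate 2) for p7N3. The cause of these moves was not tested.

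For libraries of the same replicate number, deviations of members from their group means correlated from -0.167 to 0.0225 for p7N3 and day 7. For day 3 and day 7 they correlated from -0.155 to 0.0472. Libraries of different numbers gave -0.136 to 0.163 and -0.138 to 0.17 in the same order. So few values cannot show whether libraries of the same number were handled together. With the replicate block, 42 genes were higher and 57 lower at day 3, of which 38 and 53 were among those called without it, and 0 and 0 with p7N3. The paired difference in shares was 0.104 points for day 3 minus day 7.

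The number of cells limits the members: 445 cells, 10 of them in p7N3 replicate 4, leave 3719 genes testable between conditions against 9903 within libraries. No contrast of members with day 0 or day 21 was run, because no library there held 10 members.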

Other observations

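Among Cdh5-gated cells the summed level of the rule genes was 304 ± 25.7 CPM (SD, n = 4) at day 0, 35.3 ± 42.3 (n = 3) at day 3, 76.1 ± 9.06 (n = 4) at day 7, 105 ± 14.0 (n = 4) at day 21 and 60.1 ± 41.8 (n = 4) with p7N3. At day 0, 95 of 1066 Cdh5-gated cells met the criterion of 3 of 5 genes, at a median of 3590.5 UMIs, and 1 of 61 did at day 3, at a median of 12607 UMIs. In cells with none of Csf1r, Pdgfra and Cdh5 the share was 0.395% at day 0, 2.12% at day 3, 1.33% at day 7, 0.283% at day 21 and 1.34% with p7N3. These shares were not tested between groups.

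Acp5, which encodes the tartrate-resistant phosphatase of osteoclasts and was looked at after its value was seen, had a log2 fold change of -1.70 in members, and of -0.84 against depth-matched cells, where it was not called (adjusted p = 0.0671 by edgeR).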
